A study of Mus musculus with 4 samples.

Results

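The genes described here are 40 members of the DNA replication machinery, out of 32285 genes counted in the series. They were chosen by name and role and not by a cut on their values, though earlier results of these data were known. All 40 were found in the gene lists of the 4 libraries. Each library is a droplet single-cell RNA sequencing (10x Genomics) of epithelial organoids, structures that mammary epithelial cells form in Matrigel, grown from the mammary glands of adult female virgin mice. The 4 conditions were wild-type control, wild-type HU, Brca2mut/WT control and Brca2mut/WT HU, with 1 library for each. Brca2mut/WT mice carry 1 germline truncating allele of Brca2, a gene of homologous recombination and fork protection, in every cell, and the wild-type mice were their littermates. HU is hydroxyurea, an inhibitor of ribonucleotide reductase that starves replication forks of deoxynucleotides, and control cultures were labelled untreated. In the paper, HU was given intermittently, with a recovery period before each passage. Organoids for sequencing had been frozen, and were thawed and cultured again before they were dissociated. How often the cells of a given HU library had been exposed was not given in the sources used here. The label of each library says that it pools 2 replicates. Organoids of an early and a late passage were sequenced under every condition in the paper. Its number of mice per condition differs from the number of replicates on the labels. How passages and mice were divided among the libraries was not given in the sources used here. A library may thus mix early and late passage cells, and so may each comparison between conditions. A library was therefore taken as 1 sample, and differences between conditions were described without a test.

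The 4 matrices held 33268 cells and 1062504699 UMIs (unique molecular identifiers, each a captured RNA molecule), with 243430259 to 302135155 UMIs in a library. Pairs of libraries shared 16 to 30 cell barcodes. The main cell set had 1000 to 6000 detected genes and under 5% mitochondrial UMIs (17360 cells), and every result was also computed without the upper limit (25272 cells), because 7912 cells lay above it. Cells were gated as basal (Krt14 at 500 CPM or more), HR+ luminal (Areg at 300 CPM or more) or HR- luminal (both under 300 CPM), where CPM is counts per 1000000 UMIs and HR stands for hormone receptor. Of the other markers, 7 of 8 basal and 6 of 8 HR- luminal genes were highest in their own gate in all 4 libraries, with Mylk the exception for basal cells and Aldh1a3 and Lypd3 for HR- luminal cells. The HR+ luminal markers Prlr, Pgr, Esr1, Foxa1, Ly6a and Cited1 were highest in the HR+ luminal gate in all 4 libraries, and Prom1 was not. Fibroblast markers summed to 703 to 1661 CPM in the HR+ luminal gate, nearly all from Dcn, with Col3a1 and Lum at 0, against 3.94 to 8.78 CPM in HR- luminal and 6.29 to 12.5 CPM in basal cells. Immune markers stayed at or under 0.26 CPM and endothelial markers at or under 2.13 CPM.

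DNA replication starts at origins, where ORC, Cdc6 and Cdt1 load the ring-shaped MCM helicase before S phase and Gmnn (geminin) blocks further loading by binding Cdt1. Cdc45 and GINS turn the loaded ring into the active helicase, primase and the polymerases copy the strands, and RFC opens the PCNA clamp that holds the polymerases on DNA. RPA coats single strands, Fen1 and Lig1 finish the lagging strand, Clspn, Timeless and Tipin protect the fork, and CAF-1, Uhrf1 and Dnmt1 restore nucleosomes and DNA methylation behind it. Many of these genes are known targets of E2F transcription factors, which are released from the retinoblastoma protein at the G1/S boundary.

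Promoter stretches with letters of the E2F core are shown for the members whose RNA differed most or least between cell cycle classes below and for the MCM helicase, where the table held a match, with 1 match shown for each. Of 40 members, 32 had an entry in the RefSeq promoter table (GRCm38.p6), which gives 250 bases before each start. Mcm4, Gins1, Gins2, Gins4, Pole, Rfc2, Tipin and Gmnn had none. The capitals mark the match to the E2F core on either strand. It was searched as TTCCCGC (the form in Cdc6, Uhrf1 and Mcm7), as TTCGCGC (the form in Mcm6), as TTGGCGC (the form in Rpa3 and Mcm5) and as TTGCCGC. In the stretches printed here the capitals share no letters with the other motifs searched, which are given below. In other windows they can, as TTGGCGC can share letters with ATTGG, the CCAAT box read on the opposite strand. Such overlaps were not counted. The lines are read 5′ to 3′ along the gene's own strand.
Cdc6: gccggtggagaGCGGGAAatcgcctgggg
Uhrf1: tgctttctcgcTTCCCGCcacagcgccag
Rpa3: atctgcccgggTTGGCGCggccgcccgct
Mcm5: caagaactttcGCGCCAAaacgtccagcc
Mcm6: ggacgggtttgGCGCGAAgtagctcagct
Mcm7: gcgctagcgaaTTCCCGCgtccactggag
In Cdc6, Mcm5 and Mcm6 the match read on the opposite strand, and in the other 3 on the gene's strand.

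The Cdc6 stretch was at chr11:98908002-98908030 (plus strand), 132 bases before the RefSeq start, inside introns of 2 of 4 GENCODE transcripts of the gene. The Mcm7 stretch at chr5:138171362-138171390 (minus strand) was likewise intronic to 3 of 10 transcripts, and that of Rpa3 at chr6:8259153-8259181 (minus strand) overlapped 1 exon. The stretches of Uhrf1 (chr17:56303278-56303306, plus strand), Mcm5 (chr8:75109349-75109377, plus strand) and Mcm6 (chr1:128359731-128359759, minus strand) overlapped no transcript of their gene. An E2F match stood in 18 of 39 member windows (46.2%), compared with 7.89% of 32851 windows in the table. The CCAAT box, searched as CCAAT on both strands, stood in 64.1% of member windows and 33.8% of all. The CHR element TTTGAA, known from G2/M genes, stood in 12.8% of member windows and 16.0% of all. No E2F match stood in the window of Clspn, Cdc45, Mcm10, Rfc1, Rpa1, Mcm2 or Mcm3. A match describes the letters of the window.

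All 40 genes were detected in HR- luminal cells, the most numerous lineage, with 4209 wild-type control, 3457 wild-type HU, 3592 Brca2mut/WT control and 2750 Brca2mut/WT HU cells. Their summed level was 525 CPM (520 to 529) in wild-type control, 534 CPM (529 to 539) in wild-type HU, 549 CPM (545 to 554) in Brca2mut/WT control and 513 CPM (508 to 518) in Brca2mut/WT HU. Brackets hold exact 95% Poisson intervals. All intervals given here cover counting error only and say nothing of how a repeat library would vary. With no upper gene limit the sums were 823, 806, 836 and 897 CPM in the same order, so that Brca2mut/WT HU moved from the lowest to the highest.

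In each role, the member with the most UMIs in HR- luminal cells was followed through the libraries, given below in the order wild-type control, wild-type HU, Brca2mut/WT control, Brca2mut/WT HU. Orc6, the smallest subunit of the origin recognition complex, stood at 18.4, 19.6, 19.8 and 18.2 CPM. Mcm7, a helicase ring subunit, stood at 15.1, 15.8, 15.1 and 15.4 CPM. Gins4, a GINS subunit, stood at 35.8, 36.8, 36.8 and 37.2 CPM. Each of these 3 genes varied little across the libraries. Pola1, the catalytic subunit of polymerase alpha, stood at 7.17, 7.66, 7.10 and 6.80 CPM. Rfc1, the large subunit of the clamp loader, stood at 59.4, 54.4, 62.9 and 58.5 CPM, lowest in wild-type HU. Rpa3, the smallest RPA subunit, stood at 23.8, 22.7, 20.9 and 20.3 CPM, lower in both Brca2mut/WT libraries than in both wild-type ones. Lig1, the replicative DNA ligase, stood at 16.6, 15.8, 16.4 and 14.5 CPM, lowest in Brca2mut/WT HU. Tipin, the partner of Timeless, stood at 25.3, 28.5, 27.9 and 26.6 CPM. Dnmt1, the maintenance DNA methyltransferase, stood at 32.1, 31.7, 34.1 and 32.0 CPM. Pcna, the sliding clamp, stood at 38.6, 37.1, 37.4 and 35.7 CPM and without the gene limit at 63.2, 60.9, 63.1 and 69.4 CPM, lowest in Brca2mut/WT HU with the limit and highest there without it. The lowest member was Orc1, the cell cycle-regulated ORC subunit, at 0.549, 0.384, 0.728 and 0.366 CPM. Counts come from transcript 3′ ends, so levels were compared within a gene and not between genes.

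Levels of the 40 genes differed far more between cell cycle classes than between libraries. Cells were classed on genes that are not members: after thinning each cell of at least 5000 UMIs to 5000 UMIs, S-high cells had at least 5 UMIs on 15 S phase genes (such as Rrm2, Tyms and Tk1), G2M-high cells at least 5 on 20 mitotic genes (such as Top2a and Mki67), and neither cells under 5 on both. Cells under 5000 UMIs were left out of every class and of all class shares. In HR- luminal cells these were 124, 122, 288 and 198, which left 4085, 3335, 3304 and 2552 cells. Of HR- luminal cells, 4.01% (3.43 to 4.66, exact Clopper-Pearson), 4.08% (3.43 to 4.81), 4.36% (3.69 to 5.11) and 3.80% (3.09 to 4.62) were S-high, and these intervals overlapped. Unthinned, where a deeper cell passes more easily, 47.2, 45.0, 48.4 and 52.7% had at least 5 S phase UMIs. The class is a range of a score, with 131, 109, 114 and 63 cells at 4 or 5 UMIs. All 40 members were higher in S-high than in neither cells of all 4 libraries, 36 of them by a median of over 4-fold. The median log2 ratio was 3.41, against 0.058 over 6305 genes, of which 7.47% passed 2-fold. Of 12008 genes at 2 CPM or more, 31.4% were higher in S-high cells of all 4 libraries. S-high cells were deeper in 3 libraries (median 30073, 30022 and 30485 UMIs against 24775, 25176 and 25499) and shallower in Brca2mut/WT HU (23381 against 28452). As classes were cut from expression in the same cells, no test was made.

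By role, the MCM helicase had the highest median log2 ratio of S-high to neither cells, at 4.10, followed by fork protection at 4.02, chromatin and methylation copy at 3.84 and origin licensing at 3.70. Single-strand binding was lowest at 1.74, below clamp and loader at 2.42. Mcm5 (ENSMUSG00000005410, chr8:75109569-75128439, plus strand, mm10), a ring subunit, went from 3.28, 3.54, 3.45 and 4.08 CPM in neither cells to 74.4, 79.0, 71.4 and 99.3 CPM in S-high cells. Mcm7 went from 10.0, 10.9, 10.4 and 12.0 CPM to 115, 114, 94.5 and 114 CPM. Pcna (chr2:132249162-132253314, minus strand) went from 27.8, 26.5, 26.7 and 27.8 CPM to 259, 245, 226 and 251 CPM. In each of these genes the 4 S-high values stood apart from the 4 neither values. Lig1 went from 9.02, 8.77, 9.21 and 8.59 CPM to 163, 147, 136 and 178 CPM, and Gmnn (chr13:24751845-24761923, minus strand) from 11.5, 10.8, 10.8 and 9.16 CPM to 133, 148, 133 and 140 CPM. Tipin went from 19.8, 22.7, 22.0 and 22.1 CPM to 132, 140, 130 and 150 CPM, and Dnmt1 from 27.6, 26.8, 28.8 and 28.4 CPM to 120, 125, 120 and 127 CPM.

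The 5 largest ratios belonged to genes with less than 3 CPM in neither cells. Clspn (claspin, ENSMUSG00000042489, chr4:126556935-126593903, plus strand), which carries the checkpoint signal from ATR to Chk1, went from 1.47, 1.07, 1.13 and 1.18 CPM to 80.7, 80.5, 79.4 and 74.8 CPM, a median of 66.7-fold. Cdc6, the MCM loader, went from 0.792, 0.768, 0.599 and 0.725 CPM to 26.0, 23.1, 26.3 and 28.2 CPM. Cdc45, which activates the helicase, went from 0.802, 0.491, 0.790 and 0.830 CPM to 24.1, 25.2, 21.4 and 26.8 CPM, 31.1-fold. In these 3 genes the S-high values of the 4 libraries lay close together. Uhrf1, which brings Dnmt1 to hemimethylated DNA, went from 2.49, 2.67, 2.55 and 2.67 CPM to 66.8, 66.9, 72.4 and 73.4 CPM. Mcm10, a helicase activation factor, went from 0.896, 0.780, 0.739 and 0.559 CPM to 17.4, 16.3, 18.3 and 15.7 CPM, 22.7-fold.

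The 5 smallest ratios belonged to genes with a steady level in neither cells. Rfc1 went from 56.5, 51.1, 59.8 and 56.2 CPM to 120, 127, 122 and 128 CPM, a median of 2.19-fold. Gins4 went from 33.6, 34.5, 34.3 and 35.2 CPM to 74.4, 77.7, 72.4 and 80.3 CPM, 2.23-fold, and Rpa1, the large RPA subunit, from 12.2, 12.1, 14.7 and 14 CPM to 36.2, 38.8, 46.3 and 48.0 CPM, 3.18-fold. Here too every S-high value exceeded every neither value. Rpa3 went from 20.8, 20.2, 18.1 and 18.2 CPM to 69.9, 62.7, 60.7 and 68.3 CPM, 3.35-fold, and Rfc2 from 23.8, 25.3, 26.1 and 24.8 CPM to 115, 96.8, 96.5 and 123 CPM, 4.30-fold. Gins4 thus differed from the other GINS genes, which were over 4-fold higher in S-high cells. In basal cells 39 of 40 members were higher in S-high cells of all 4 libraries, compared with 21.7% of all genes, with a median log2 ratio of 2.70 over 39 members. The exception was Gins3, which had 0 UMIs in the S-high basal cells of Brca2mut/WT control. All 40 were higher in both lineages without the gene limit, compared with 44.5% of all genes in HR- luminal and 30.3% in basal cells. The medians of the members were then 3.12 in HR- luminal and 2.46 in basal cells.

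**Figure D1:**
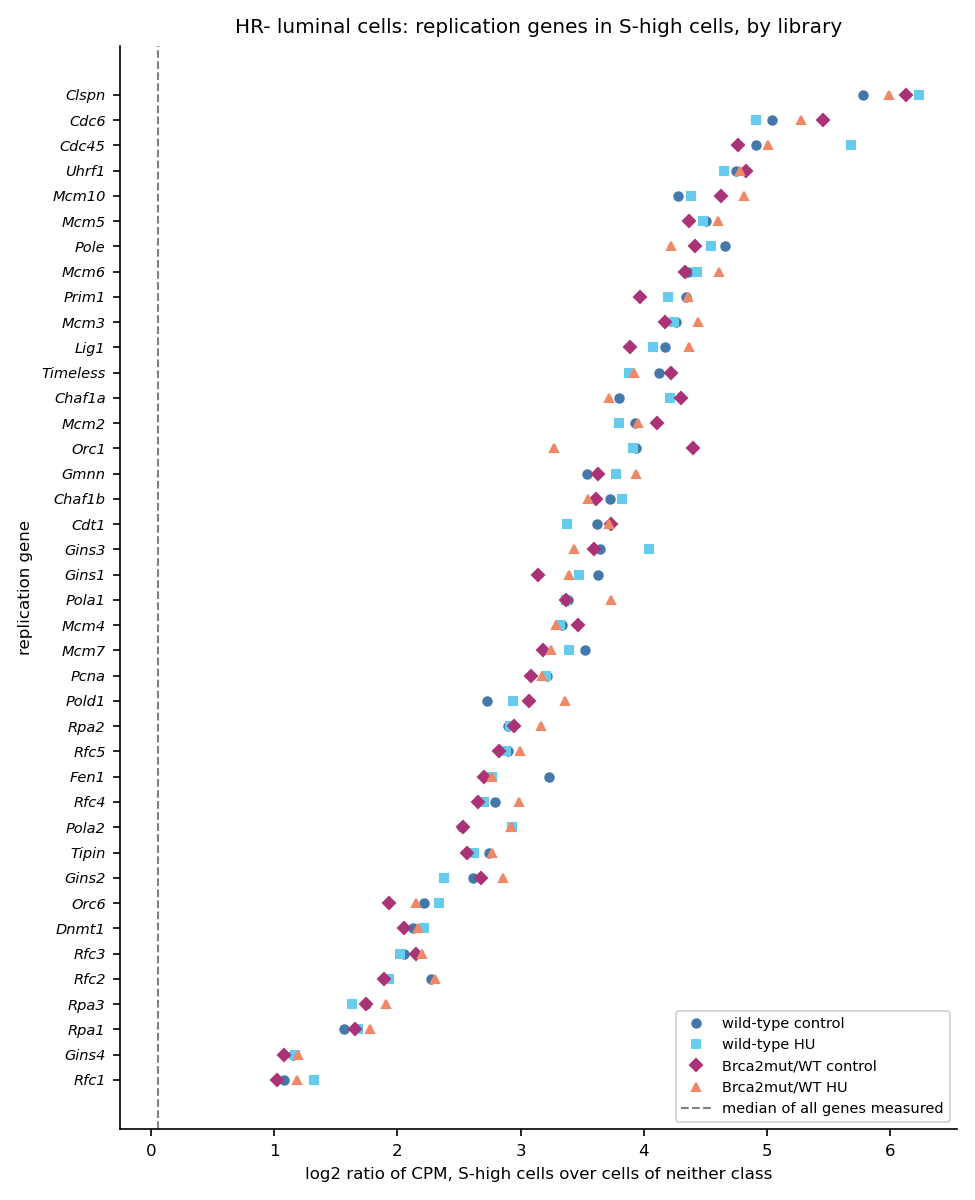
Log2 ratio of CPM between S-high and neither HR- luminal cells with 1000 to 6000 genes (horizontal axis) for each of the 40 members (rows, ordered by median), with 1 symbol for each of the 4 libraries and a dashed line at the median of all genes (0.058). Every symbol lies to the right of the line, from Clspn at the top (median 66.7-fold) to Rfc1 at the bottom (2.19-fold).

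Cells that were S-high but not G2M-high were then compared with cells that were G2M-high but not S-high. In HR- luminal cells 39 of 40 members were higher in the S-only class in all 4 libraries, compared with 14.1% of 12500 genes at 2 CPM or more. The median log2 ratio of the members was 2.07 (37 members, since Cdc6, Gins3 and Orc1 had a class with 0 UMIs) and that of the MCM helicase 3.32, against -0.088 over all genes. Timeless, the fork protection factor, had a wide gap, at 29.3, 27.0, 39.5 and 34.1 CPM in S-only against 1.39, 0.918, 1.96 and 1.02 CPM in G2M-only cells, a log2 ratio of 4.63. Cdc6 stood at 0, 0.918, 0.327 and 0.51 CPM in G2M-only cells. The exception was Rfc5, a small clamp loader subunit, at 39.4, 55.6, 57.5 and 64.3 CPM in S-only and 41.5, 53.7, 34.6 and 49.0 CPM in G2M-only cells, with overlapping values. Rpa3 (log2 ratio 0.39), Gins4 (0.58), Pola1 (0.63) and Rfc2 (0.70) also differed little. With all cells above 6000 genes included, all 40 were higher in S-only cells of all 4 libraries, as were 19.6% of all genes. In basal cells, with fewer cells in each class, 32 of 40 were, and 36 without the limit, against 8.63% and 12.7% of all genes.

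The other replication genes, a list of 33 that are not members, differed in the same direction by a smaller median. Of these, 28 were higher in S-high than in neither HR- luminal cells of all 4 libraries and 14 were over 4-fold higher, with a median log2 ratio of 1.92. Ticrr (treslin, an origin firing factor) was highest at 38.9-fold and Dscc1 (an alternative clamp loader subunit) next at a log2 ratio of 5.02. Pold4, a small accessory subunit of polymerase delta, was lower in S-high cells by a log2 ratio of -0.63, and Orc4 was level at 0.02.

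The upper limit of 6000 genes fell unevenly on the classes. It removed 65.3, 63.7, 66.5 and 78.1% of the S-high HR- luminal cells, compared with 20.2, 18.6, 25.5 and 35.2% of the neither cells. Over the 4 libraries this came to 1178 of 1719 S-high cells (68.5%) and 4012 of 16370 neither cells (24.5%). Without the limit the S-high shares were 8.55% (7.83 to 9.32), 8.56% (7.75 to 9.43), 8.96% (8.17 to 9.81) and 10.1% (9.26 to 11.1), highest in Brca2mut/WT HU, which had been lowest with the limit. Its HR- luminal cells were also the deepest without the limit, at a median of 35381 UMIs. The medians of wild-type control, wild-type HU and Brca2mut/WT control were 28472, 28626 and 30098.5 UMIs. The part of depth in this change was not tested. All 40 members were higher in HR- luminal cells above 6000 genes than in those below it in all 4 libraries, with median log2 ratios of 1.41, 1.37, 1.20 and 1.50 and all counting intervals above 0. By the same rule 38.6% of 11765 genes at 2 CPM or more were higher, with median log2 ratios of 0.13, 0.13, 0.14 and 0.16, and 39 of the 39 members that passed this floor. A cell with several antibody tags may be a doublet. Such cells made up 5.01% of the S-high cells above the limit and 9.06% of those within it, and 9.70% and 2.86% of the neither cells.

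**Figure D2:**
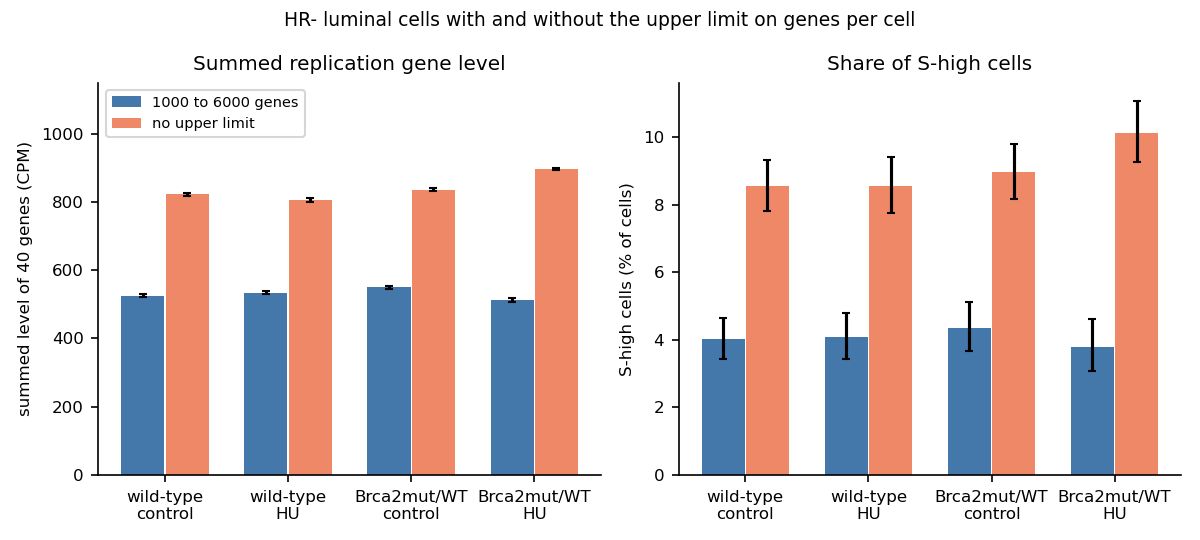
HR- luminal cells of each library with the limit of 6000 genes and without it. The left panel gives the summed level of the 40 members in CPM and the right panel the share of S-high cells in percent, with bars from 0 and exact 95% counting intervals. Brca2mut/WT HU has the lowest sum with the limit (513 CPM) and the highest without it (897 CPM).

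Between lineages the members could be tested, because the lineages were gated within each library on Krt14 and Areg alone and the 4 libraries served as replicates. Whether the HU and control libraries of a genotype came from the same mice was not given in the sources used here. With library as a block, the p-values measure how far the lineage differences vary among these 4 libraries, not among mice. Each library is another condition, so any effect of condition on a lineage difference is part of that variation. Basal cells numbered 709, 868, 320 and 320 and HR+ luminal cells 176, 146, 124 and 123. Basal cells were higher in 34 of 40 members than HR- luminal cells and lower in 1, by edgeR's quasi-likelihood test with Benjamini-Hochberg adjustment over 13885 genes. Of all genes tested, 32.4% were called higher and 32.5% lower. The median log2 difference of the members was 0.77, against -0.0024 over all genes. In the cells with no upper gene limit 31 were higher, all among the 34, and 1 lower, where 34.6% of all genes were called higher and 35.5% lower. In such sums more cells in S phase and more RNA per cell cannot be told apart. Within the gene limit 9.42, 18.2, 5.74 and 11.8% of basal cells were S-high, against 4.01, 4.08, 4.36 and 3.80% of HR- luminal cells. In HR+ luminal cells the shares were 7.59, 6.57, 2.65 and 2.13% (12, 9, 3 and 2 cells). The part of these shares in the lineage differences was not tested.

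All 6 MCM genes (median log2 difference 1.13), all 5 licensing genes (1.24), all 5 polymerase and primase genes (0.79), all 3 fork protection genes (0.71) and both flap and nick genes (0.72) were higher in basal than in HR- luminal cells. Gins1 (chr2:150905400-150931280, plus strand), a GINS subunit, stood at 2.95, 5.17, 5.07 and 5.90 CPM in basal and 1.36, 1.40, 1.43 and 1.35 CPM in HR- luminal cells, without overlap, a log2 difference of 1.60 ± 0.21 (SE; edgeR adjusted p = 3.9e-05). Gmnn stood at 39.5, 59.3, 42.9 and 37.2 CPM in basal and 17.4, 17.7, 17.5 and 13.9 CPM in HR- luminal cells, 1.29 ± 0.11 (edgeR adjusted p = 1.6e-06). Mcm5 stood at 15.3, 30.7, 14.6 and 17.0 CPM in basal and 6.74, 7.23, 7.04 and 7.24 CPM in HR- luminal cells, 1.29 ± 0.22 (edgeR adjusted p = 0.00027). In Mcm5 the wild-type HU library stood above the other 3 basal values. Gins3 stood at 2.05, 3.50, 1.19 and 2.81 CPM in basal and 0.732, 0.839, 0.924 and 0.929 CPM in HR- luminal cells, 1.35 ± 0.25 higher (edgeR adjusted p = 0.00057), and Orc1 at 1.35, 2.56, 0.596 and 1.40 CPM, 1.47 ± 0.44 above (edgeR adjusted p = 0.012), where the Brca2mut/WT control value lay within the HR- luminal range. Gins4 (chr8:23226616-23237659, minus strand) was the exception, at 32.8, 38.0, 28.3 and 33.5 CPM in basal cells, below HR- luminal cells in 3 of 4 libraries, a log2 difference of -0.28 ± 0.07 (edgeR adjusted p = 0.0044). Rfc1, Dnmt1, Rpa1, Rfc4 and Gins2 did not pass the test.

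Within cell cycle classes fewer members were higher in basal cells. Among neither cells 20 members were higher in basal than in HR- luminal cells, all of them among the 34, and 2 were lower (Gins4 and Rfc1), with a median log2 difference of 0.39. Here 30.9% of all genes were called higher and 30.2% lower by edgeR. The 20 held all 6 MCM genes, Cdt1 (1.18), which loads MCM with Cdc6, Gins1 (1.15) and Gmnn (1.13). Among S-high cells, compared over 3 libraries because Brca2mut/WT control had under 20 S-high basal cells, 2 members were higher in basal cells and 14 lower, with a median of -0.28. The background was 22.0% higher and 22.0% lower. Gins2 stood at 50.7, 54.7 and 47.8 CPM in S-high basal cells of wild-type control, wild-type HU and Brca2mut/WT HU and at 83.6, 79.5 and 105 CPM in S-high HR- luminal cells, without overlap (edgeR adjusted p = 0.00042). Prim1, the primase subunit that makes the primer, stood at 45.4, 56.9 and 41.1 CPM against 72.5, 71.6 and 81.2 CPM (edgeR adjusted p = 0.003). Rfc4 stood at 61.5, 73.8 and 57.4 CPM against 91.8, 93.1 and 108 CPM (edgeR adjusted p = 0.0024). Orc1 stood at 9.55, 7.62 and 7.65 CPM against 4.77, 3.41 and 2.77 CPM, higher in basal cells (edgeR adjusted p = 0.016), and Gins1 was also higher (log2 difference 0.63, edgeR adjusted p = 0.041). Over all 4 libraries with no upper gene limit, 1 was higher and 20 lower, 11 of them also among the 14, against 27.9% and 28.4% of all genes. With a class cut of 3 UMIs in place of 5, however, 16 members were higher and 0 lower. With a cut of 8 UMIs 1 was higher and 12 lower, so the direction among S-high cells depended on the cut and turned at 3 UMIs. The shares over all genes were not computed for these cuts or with a library left out. With the cut of 5 UMIs, 9 were lower and 0 higher without the wild-type HU library, and 4 were lower and 1 higher without Brca2mut/WT HU.

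HR+ luminal cells differed from HR- luminal cells in 11 of 40 members, 3 higher and 8 lower by edgeR. Both shares were below those over all genes, of which 31.3% were called higher and 32.9% lower. Their summed level was 688, 565, 469 and 593 CPM. Gmnn was higher at 55.9, 45.2, 37.3 and 35.5 CPM (log2 difference 1.21 ± 0.12, edgeR adjusted p = 5.9e-06), without overlap with HR- luminal cells. Gins1 was higher at 4.50, 4.20, 2.64 and 3.30 CPM (19, 16, 8 and 9 UMIs, edgeR adjusted p = 0.0017) and Pcna at 64.5, 60.6, 47.2 and 64.1 CPM (0.48 ± 0.11, edgeR adjusted p = 0.0029). All 3 were also higher in basal cells. Pola1 was lower at 4.74, 4.99, 2.64 and 4.39 CPM (-0.96 ± 0.19, edgeR adjusted p = 0.001), as were Pole, the leading-strand polymerase, at 0.71, 1.05, 0.66 and 1.83 CPM (edgeR adjusted p = 0.045) and Timeless at 2.13, 1.84, 1.32 and 1.46 CPM (edgeR adjusted p = 0.033). These levels rest on 3, 4, 2 and 5 UMIs for Pole and 9, 7, 4 and 4 UMIs for Timeless. In Brca2mut/WT HU the Pole level lay above that of HR- luminal cells (1.55 CPM). Of the clamp loader, Rfc5 was lower at 11.4, 7.35, 7.59 and 9.52 CPM (edgeR adjusted p = 0.0034) and Rfc4 at 16.6, 11.3, 9.57 and 15.7 CPM (edgeR adjusted p = 0.0071), with Rfc3, Gins4 and Rfc1 the remaining 3. Including cells above the gene limit, 10 were higher and 6 lower, against 34.0% and 35.7% of all genes. Scaled to library totals without TMM, 5 were higher and 5 lower, and 5 were lower without the Brca2mut/WT control library. The Dcn level of the HR+ luminal gate, given above, was present in all 4 libraries, and its part in these differences was not tested.

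**Figure D3:**
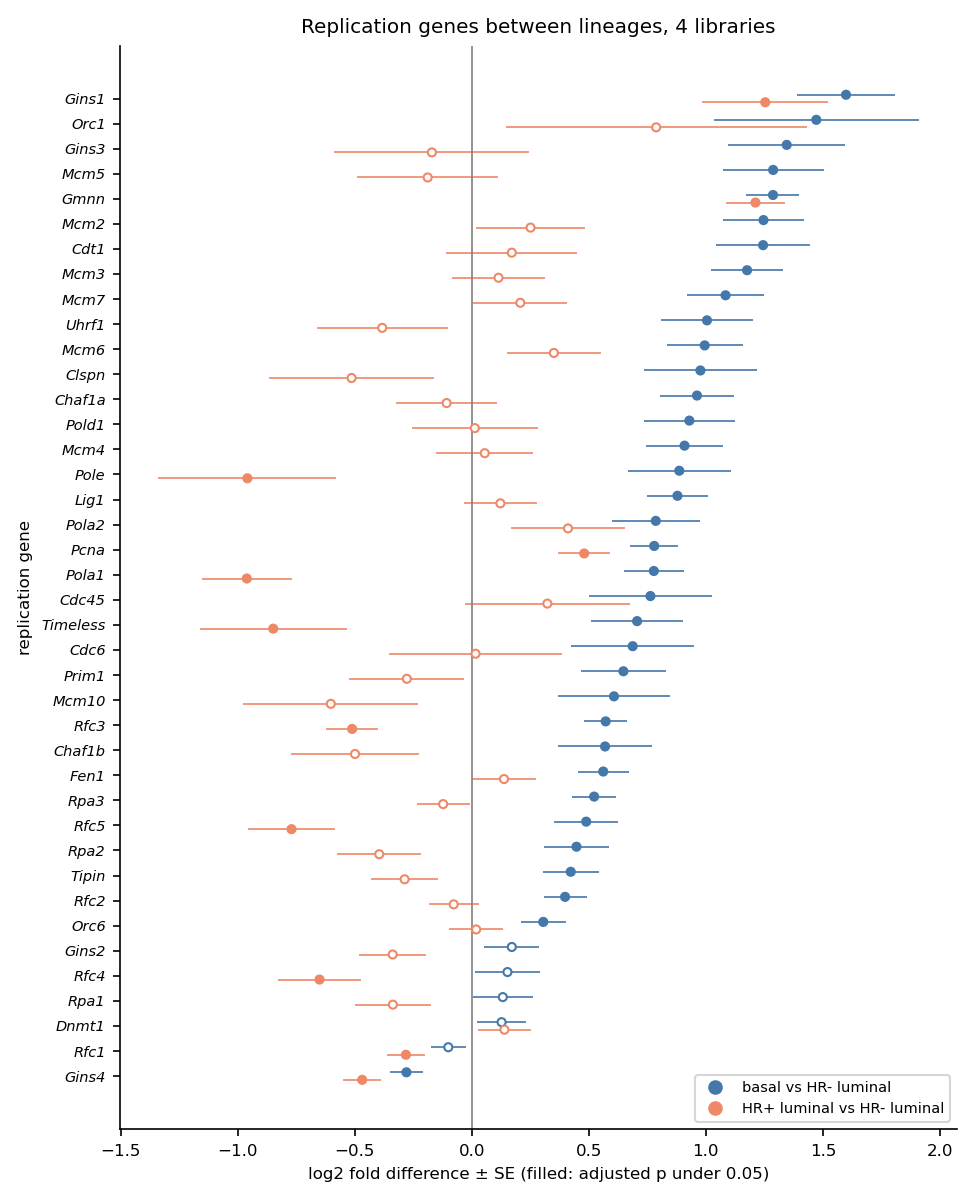
Log2 difference of each member between basal and HR- luminal cells and between HR+ luminal and HR- luminal cells from edgeR, with bars for the standard error and filled points for those past an adjusted p of 0.05. In basal cells 34 members stand to the right and 1, Gins4, to the left, and in HR+ luminal cells 3 and 8.

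Among the other replication genes, 16 were higher in basal than in HR- luminal cells and 4 lower of 32 tested. Of all genes 32.4% were called higher and 32.5% lower. Dbf4, the activator of the Cdc7 kinase that fires origins, was 1.51 higher on the log2 scale (edgeR adjusted p = 1.2e-06) and Dscc1 1.24 higher, whereas Pold4 and Top1 were both at -0.35. In HR+ luminal cells 9 were higher and 9 lower, close to the 31.3% and 32.9% of all genes. The log2 differences ran from Dbf4 (1.01) and Orc5 (0.99) to Pole2 (-1.87) and Ticrr (-1.91).

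The question of the study's design was how HU exposure and the Brca2 allele bear on the epithelium. In HR- luminal cells within the gene limit the members at 20 CPM or more differed little between conditions, and members below that level are given further on. A member was counted as past the fold where it differed by at least 0.32 on the log2 scale with a counting interval apart from equality, among genes at 20 CPM or more in 1 of the libraries compared. A member near this floor can thus enter through the library where it is higher, which bears on its direction. The 4 comparisons share libraries pairwise and are not independent. None of the 8 members measured passed in either direction between wild-type HU and control, where 2.90% of all genes were past the fold higher and 4.05% lower. The same held for 9 members between Brca2mut/WT HU and control (1.79% and 3.11% of all genes), for 9 between Brca2mut/WT and wild-type control (3.33% and 1.52%) and for 8 between Brca2mut/WT HU and wild-type HU (2.52% and 1.18%). With so few members, 0 past the fold is close to these shares. The floor left out most members and kept Rfc1, Gins4, Rpa3 and Rfc2, which were among those with the smallest ratios between cell cycle classes.

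Among the members at 20 CPM or more, the log2 ratios lay between -0.25 and 0.26. Both ends were Rfc4, which reached the floor only in Brca2mut/WT control, at 20.7 CPM. It stood at 17.3 CPM in wild-type control, 18.7 CPM in wild-type HU and 17.4 CPM in Brca2mut/WT HU. Rfc4 thus entered only the comparisons that hold Brca2mut/WT control, and the floor bore on its direction there. Between wild-type HU and control they ran from Rfc1 at a log2 ratio of -0.13, Rpa3 at -0.07 and Pcna at -0.06 to Rfc2 and Gins4 at 0.04 and Tipin at 0.17. Between Brca2mut/WT HU and control they ran from Rfc4 at -0.25, Rfc1 at -0.11 and Rfc2 at -0.10 to Rpa3 at -0.04, Gins4 at 0.02 and Rfc3 at 0.10. Rfc1 was slightly lower in the HU library of both genotypes. Between Brca2mut/WT and wild-type control they ran from Rpa3 at -0.18 and Pcna at -0.05 to Tipin at 0.14 and Rfc4 at 0.26, and between Brca2mut/WT HU and wild-type HU from Rpa3 at -0.16 and Tipin at -0.10 to Rfc1 at 0.10 and Rfc3 at 0.12. Without the gene limit 19 or 20 members reached the floor, and the ratios ran from -0.20 to 0.39. Between Brca2mut/WT HU and wild-type HU, 18 of 20 then lay above equality, as did 69.3% of all genes. In that comparison 2 members passed the fold higher, and none passed in the others. The share of all genes past the fold is not given for that set.

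With the floor at 2 CPM, chosen after the values were seen, 33 members could be compared. Fen1, the flap endonuclease, was past the fold in wild-type HU, at 11.6 CPM against 8.48 CPM in control (log2 ratio 0.45, 0.32 to 0.58), where 5.09% of all genes were higher and 7.71% lower. In Brca2mut/WT HU 6 members were lower than in Brca2mut/WT control and 0 higher, against 5.97% lower and 4.65% higher of all genes. These were Mcm2 (3.77 against 4.78 CPM), Mcm3 (8.80 against 11.5 CPM), Pold1 (2.70 against 3.73 CPM), Clspn (3.67 against 5.22 CPM), Timeless (2.45 against 3.11 CPM) and Gmnn (13.9 against 17.5 CPM). In Brca2mut/WT control Rpa1 was higher than in wild-type control, at 16.6 against 13.3 CPM (4.88% of all genes higher, 3.26% lower). In Brca2mut/WT HU 5 members (Mcm2, Mcm3, Cdt1, Clspn and Gmnn) were lower than in wild-type HU and 0 higher, against 2.30% lower and 4.76% higher of all genes.

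That direction did not hold without the upper gene limit. Of 39 members then measured, 0 were lower in Brca2mut/WT HU than in Brca2mut/WT control and 3 higher (Cdt1, Gins3 and Fen1), with 4.94% of all genes lower and 4.24% higher. Against wild-type HU, 6 were higher (Mcm10, Cdc6, Gins3, Pole, Rpa1 and Rpa2) and 0 lower, with 10.3% of all genes higher and 4.97% lower. The summed level turned with it. Brca2mut/WT HU against control gave a log2 ratio of -0.099 (-0.119 to -0.080) with the limit and 0.10 without it, and Brca2mut/WT HU against wild-type HU -0.058 (-0.078 to -0.038) and 0.15. Wild-type HU against control turned from 0.025 (0.007 to 0.043) to -0.030, and the genotype ratio in control cells went from 0.066 (0.048 to 0.084) to 0.023. Over all genes the median ratio was 0.027, 0.012, 0.061 and 0.042 for these comparisons with the limit (wild-type HU, Brca2mut/WT HU, genotype in control, genotype in HU). Among S-high HR- luminal cells alone the summed log2 ratios were 0.017, 0.15, -0.041 and 0.094 in that order with the limit and 0.15, 0.047, 0.058 and -0.043 without it. Among neither cells they were 0.019, -0.0039, 0.050 and 0.026 with the limit and -0.037, 0.074, 0.057 and 0.17 without it.

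In basal cells the summed level of the members was higher in both HU libraries than in their controls. It was 749 CPM (736 to 763) in wild-type control, 1106 CPM (1091 to 1121) in wild-type HU, 716 CPM (695 to 736) in Brca2mut/WT control and 836 CPM (815 to 857) in Brca2mut/WT HU. Wild-type HU exceeded control by a log2 ratio of 0.56 (0.53 to 0.59), compared with a median of 0.036 over all genes. Of 23 members at 20 CPM or more, 23 lay above equality and 21 passed the fold, where 10.3% of all genes were higher and 9.42% lower. Mcm5 stood at 30.7 against 15.3 CPM (log2 ratio 1.01, 0.79 to 1.23), Mcm4 at 36.8 against 21.7 CPM (0.76) and Rfc5 at 28.9 against 17.1 CPM (0.75). Of these, Mcm5 and Rfc5 reached 20 CPM only in wild-type HU, so the floor bore on their direction and on the counts above. The smallest ratios were those of Gins4 and Rfc1, both 0.21, and Rfc2 (0.36). Without the gene limit the summed ratio was 0.42 (0.40 to 0.44) and 23 of 28 members passed, against 6.27% of all genes higher and 7.76% lower, with Mcm5 at 40.4 against 25.4 CPM.

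In Brca2mut/WT basal cells the HU library exceeded its control by a log2 ratio of 0.22 (0.17 to 0.28), with 8 of 19 members past the fold higher, where 7.08% of all genes were higher and 6.09% lower. Mcm4 was highest at 25.7 against 15.6 CPM (0.72), followed by Rfc3 and Rpa2, both 0.60, and Gmnn (-0.21), Gins2 and Rfc5 (both -0.19) were lowest. Mcm4 reached the floor only in the HU library, which bore on its direction. Without the gene limit the ratio was 0.41 (0.39 to 0.44) and 19 of 27 passed, among them Fen1 and Clspn (both 0.64) and Mcm3 (0.62), against 5.56% of all genes higher and 3.29% lower. The S-high share of basal cells moved with these levels, at 9.42, 18.2, 5.74 and 11.8% with the limit and 17.3, 26.0, 13.5 and 21.4% without it, and their part in the summed ratio was not tested. Unthinned, 60.1, 65.8, 53.0 and 61.5% of basal cells within the limit had at least 5 S phase UMIs. Within S-high basal cells the summed log2 ratio of wild-type HU to control was 0.067 with the limit and 0.21 without it. That of Brca2mut/WT HU to control was -0.45 (-0.54 to -0.36) with the limit and 0.11 without it. The -0.45 rests on 34 HU and 17 control cells, where the lineage fit left out sums of under 20 cells. Within neither cells the summed log2 ratios of wild-type HU and Brca2mut/WT HU to control were 0.25 and 0.19 with the limit.

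Between genotypes, untreated basal cells were close, with a summed log2 ratio of Brca2mut/WT to wild-type control of -0.066 (-0.115 to -0.018). Here 1 of 17 members, Gins2 (0.57), was past the fold higher and 2, Mcm3 (-0.33) and Mcm4 (-0.47), lower, with 6.64% of all genes higher and 6.21% lower. Brca2mut/WT HU lay below wild-type HU by a log2 ratio of -0.40 (-0.45 to -0.36), with 13 of 23 members lower and 0 higher, against 9.93% and 11.9% of all genes. Uhrf1 (-0.96), Mcm5 (-0.85) and Rfc5 (-0.70) were lowest. Of this pair of libraries Mcm5 reached the floor only in wild-type HU, which bore on its direction. Without the gene limit this ratio was -0.069 and 0 of 28 members passed in either direction, where 7.71% of all genes were higher and 3.26% lower.

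**Figure D4:**
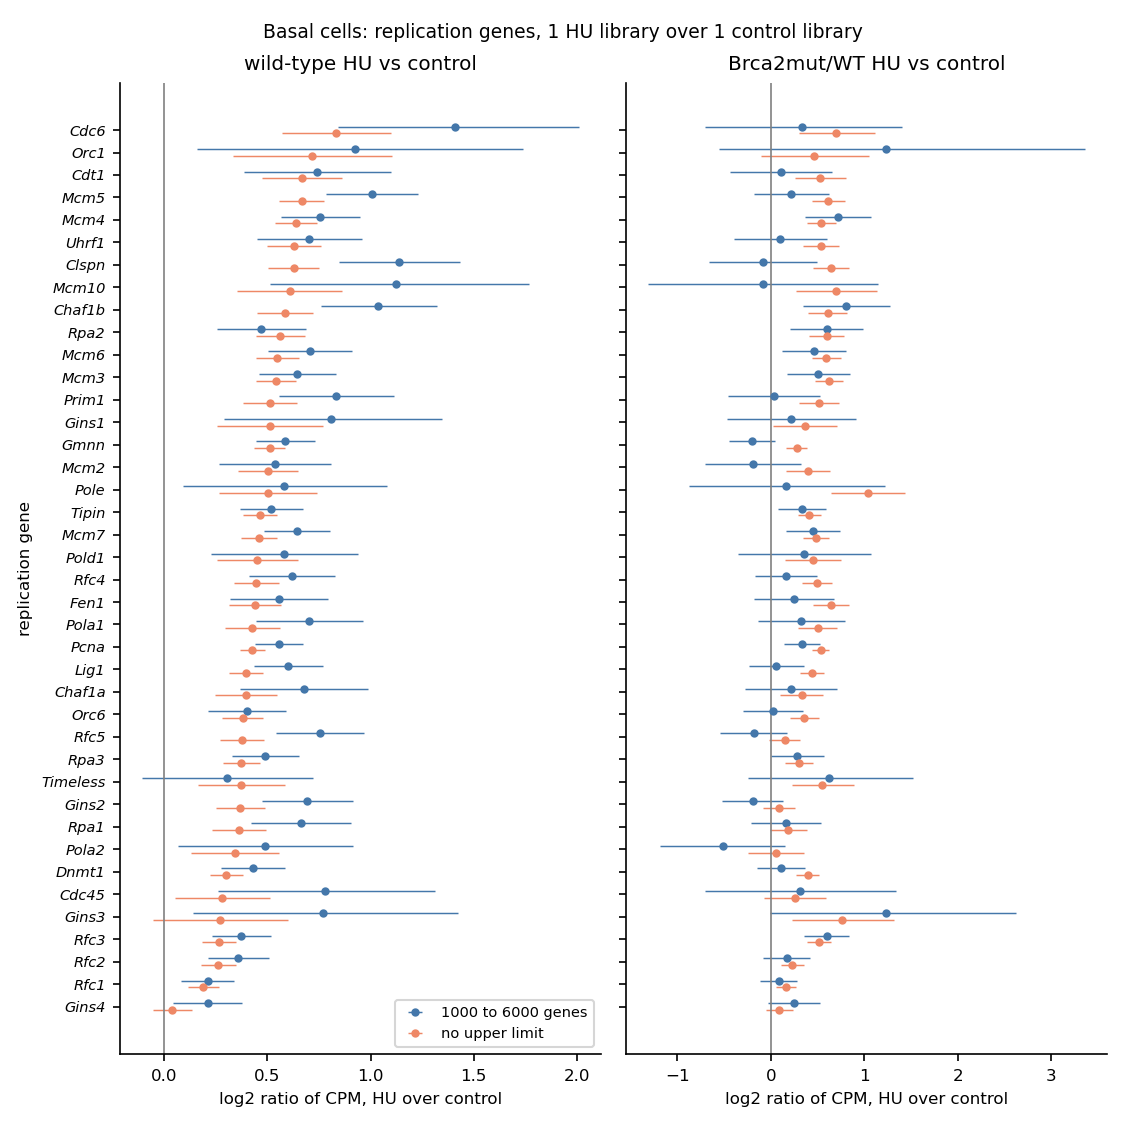
Log2 ratio of CPM of HU over control in basal cells for each member (rows), in wild-type (left) and Brca2mut/WT cells (right), with 1000 to 6000 genes per cell and with no upper limit, and exact 95% counting intervals as lines. The panels have different horizontal scales. In wild-type cells all points lie to the right of 0, with Mcm5 at 1.01 within the limit, and in Brca2mut/WT cells some, such as Gmnn at -0.21 within the limit, lie to the left.

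Each library also carried 4 antibody tags, which mark cells pooled before loading, and a cell was given to a tag pool where that tag alone held at least 20% of its tag UMIs, with at least 10 UMIs. No key to the tags was given in the sources used here, so pools are unlabelled and the same number need not mean the same source in different libraries. In HR- luminal cells without the gene limit, pools 1 and 3 had 3.86 to 6.20% S-high cells and 545 to 674 CPM of summed members in every library, and pools 2 and 4 had 11.9 to 22.8% and 1001 to 1343 CPM. The spread between pools of 1 library was thus wider than that between the libraries (806 to 897 CPM). With the limit the gap was smaller. Pools 1 and 3 then had 1.55 to 4.29% S-high cells and 445 to 566 CPM, and pools 2 and 4 had 4.85 to 12.2% and 561 to 905 CPM. In wild-type HU, pool 1 (566 CPM) was level with pool 2 (561 CPM) in that set. The pools made up unlike parts of the libraries. Without the limit, pool 2 held 437, 910, 1387 and 1294 HR- luminal cells and pool 4 held 901, 489, 754 and 304, in library order. Pool 1 held 2070, 1223, 1297 and 1400 and pool 3 held 1817, 1641, 1275 and 1250. The part of this mix in the differences between libraries was not tested.

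In basal cells the summed level of the pools, which were not paired across libraries, was 502, 640, 750 and 834 CPM in wild-type control and 876, 1195, 1050 and 1128 CPM in wild-type HU. All wild-type HU values thus stood above all wild-type control values. The counting intervals of the closest pools overlapped, however, at 839 to 915 CPM for pool 1 of wild-type HU and 815 to 853 CPM for pool 4 of wild-type control. Without the gene limit the ranges of the values overlapped too, at 716 to 1124 CPM in wild-type control and 930 to 1625 CPM in wild-type HU. Pool 2 held 413 of 868 basal cells of the wild-type HU library. The pools of Brca2mut/WT control stood at 705, 695, 633 and 791 CPM and those of Brca2mut/WT HU at 899, 456, 701 and 996 CPM, overlapping, with 5 and 11 cells behind the values of pool 2. Without the gene limit they ran from 788 to 1191 CPM and from 961 to 1621 CPM.

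**Figure D5:**
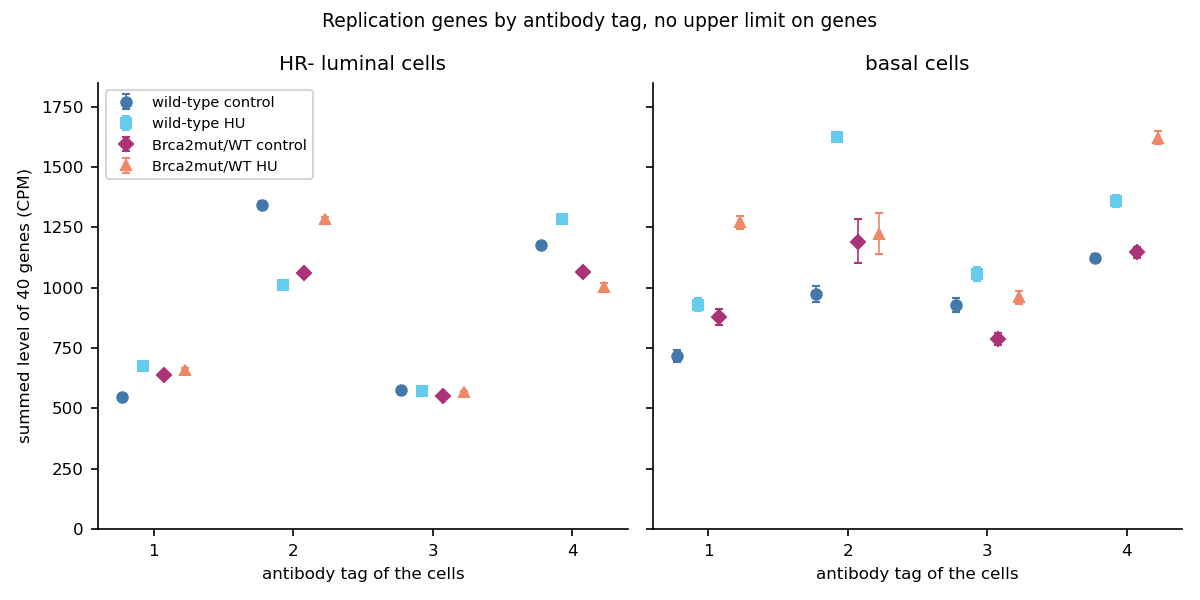
Summed level of the 40 members in CPM (vertical axis) by antibody tag (horizontal axis) and library (symbols), for HR- luminal (left) and basal cells (right) without the upper gene limit, with exact 95% counting intervals where wider than the symbol. In HR- luminal cells pools 2 and 4 (1001 to 1343 CPM) lie above pools 1 and 3 (545 to 674 CPM) in every library.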

How the data were processed

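Single cells of 4 organoid libraries were read as gene UMI counts, which the authors deposited as Cell Ranger matrices of whole numbers with no normalisation. The submitters' processing notes name Cell Ranger 6.0.2, Seurat 4.0, R 4.1.3 and mm10. Antibody tag counts were deposited in the same matrices. The 40 genes, the gate levels and the gene lists were chosen with earlier results of these data known.

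Raw counts were summed per library, lineage and class, and CPM was taken over all gene UMIs of the sum. Lineages were compared with edgeR 4.0.16 (quasi-likelihood, TMM, filterByExpr, library as block, 12 sums, sums of under 20 cells left out) in R 4.3.3, tested on simulated data. The library block pairs lineages gated from the same library. Conditions, with 1 library each, were compared by log2 CPM ratios with exact conditional binomial 95% intervals and no test. Python 3.11.15, numpy 2.4.6, scipy 1.17.1 and pandas 2.3.3 were used. No doublet caller was run, and cells with more than 1 tag were left out in an alternative. Named members were the highest of each role, the 5 largest and smallest class ratios, up to 5 per direction between lineages, and the 3 highest and lowest per condition comparison; further members past the 2 CPM floor were named after their values were seen. Alternatives were DESeq2 1.42.0, other scalings, filters, gates, cuts and limits, and each library left out. Promoters came from RefSeq (GRCm38.p6) and transcripts from GENCODE. The level of 1 marker gene is not reported here.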

Additional observations from a re-analysis of the deposited data

Results flagged for a closer look

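The summed level of the 40 members moved in opposite directions in basal and HR- luminal cells in 5 cases. These were sought in the 4 condition comparisons, each made with and without the upper gene limit. Only Brca2mut/WT against wild-type control was among them both with and without the limit. Each rests on 1 library a condition, so the difference between the lineages was not tested, and the values below are log2 ratios of summed CPM. With the limit of 6000 genes, Brca2mut/WT HU against control was 0.22 in basal and -0.099 in HR- luminal cells, a difference of 0.32. Brca2mut/WT against wild-type control was -0.066 and 0.066, a difference of -0.13. Without the limit, wild-type HU against control was 0.42 in basal and -0.030 in HR- luminal cells, a difference of 0.45. Brca2mut/WT against wild-type control was -0.061 and 0.023, a difference of -0.084. Brca2mut/WT HU against wild-type HU was -0.069 and 0.15, a difference of -0.22. Over all genes at 20 CPM or more the medians for these 5 cases, basal then HR- luminal, follow in the same order. They were 0.032 and 0.012, 0.0035 and 0.061, 0.014 and 0.013, -0.010 and 0.057, and 0.031 and 0.082. For the untreated genotypes without the limit, both lineages thus lay below their all-gene median. By tag number, though pools are not paired across libraries, 1, 1, 2, 1 and 1 of 4 HR- luminal pools lay above 0 in these cases. In basal cells 3, 2, 4, 3 and 2 of 4 did. The positive HR- luminal ratios of the summed libraries were thus not seen in most pools.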

How the results depend on the processing

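Without the upper gene limit the summed HR- luminal ratios were -0.030 for wild-type HU against control, 0.10 for Brca2mut/WT HU against control, 0.023 for the genotypes in control and 0.15 for the genotypes in HU, of which the first, second and last turned sign. With a mitochondrial limit of 10% the first was -0.0017 and the last -0.029. The second and last were -0.12 and -0.096 in cells with 1 tag, and -0.13 and -0.087 with the HR- luminal gate at 100 CPM, and TMM scaling gave 0.020 and -0.11 for the genotypes in control and HU. S-high shares were 8.55, 8.56, 8.96 and 10.1% without the limit, 12.5, 12.2, 13.4 and 11.6% with a cut of 3 UMIs and 1.93, 1.86, 2.27 and 2.19% with a cut of 8 UMIs. The basal ratios without the limit, chosen after the data were seen, were 0.42, 0.41 and -0.069 for wild-type HU, Brca2mut/WT HU and the genotypes in HU.

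Of members called by edgeR, basal cells were higher in 25 to 34 and lower in 1 when each library was left out (25 without wild-type HU), higher in 20 and lower in 2 in cells under both class cuts (chosen after the data were seen), and lower in 0 without TMM. HR+ luminal cells were higher in 10 without the gene limit and 5 without TMM, and lower in 5 without TMM. With a library left out they were higher in 3 and lower in 5 to 10 (5 without Brca2mut/WT control). Without a low-count filter 12 were lower. S-high basal cells were higher in 1 (20 lower) without the limit, in 16 (0 lower) with a cut of 3 UMIs and in 1 (12 lower) with a cut of 8 UMIs. With a library left out they were higher in 0 to 2 and lower in 4 to 11 (0 and 9 without wild-type HU, 4 lower without Brca2mut/WT HU). Leaving out the replicate block changed no count by over 1.5 times, with 34 higher and 1 lower in basal, 3 and 8 in HR+ luminal and 2 and 12 in S-high basal cells. DESeq2 gave 32 higher and 1 lower in basal and 3 and 7 in HR+ luminal cells. The cause of these shifts was not tested. With 1 library a condition, neither depth nor counting intervals stand for the spread of repeat libraries.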
